A study of Arabidopsis thaliana with 108 samples.

Results

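H3K4me3 was compared genome-wide between TRB2-ZF plants and the fwa epiallele in which they were made, from the H3K4me3 ChIP-seq peak lists of TRB2-ZF replicates 1 and 2 and of fwa replicates 1, 2 and 3. These are 5 of the 108 samples of the series, chosen by their antibody and line labels. The fwa epiallele is a Columbia-0 (Col-0) line that has lost DNA methylation from the promoter of FWA, so that this homeodomain gene is expressed outside the endosperm and flowering is late. TRB2-ZF carries pTRB2:TRB2-FLAG-ZF108, a genomic TRB2 fragment with its own promoter fused to FLAG and to ZF108, an artificial zinc finger designed against the FWA promoter, in the fwa background. All 5 samples therefore share the fwa epiallele and a resident TRB2 gene, and the labels name no treatment of either line. The TRB2-ZF plants were T2 lines that flowered early, so the fusion, the line and the earlier flowering cannot be told apart by these lists. The labels give floral tissue of plants 5 to 6 weeks old, whereas the methods of the study describe leaves. Neither the labels nor the methods say how many plants stand behind each list or whether the replicates were grown separately.

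H3K4me3 is a histone mark that sits near the start of transcribed genes in plants and is written by ATX-type and SDG2 methyltransferases and removed by JmjC demethylases such as JMJ14. TRB proteins bind telomere-like DNA and are known as partners of JMJ14 and of the Polycomb complex PRC2, which writes the repressive mark H3K27me3. A zinc finger fusion brings such a protein to its designed site, and zinc fingers of this kind can also bind elsewhere in the genome, so all genes were compared in the same way as FWA.

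Each of the 27444 protein-coding genes on chromosomes 1 to 5 was given a covered length, which is the number of bases under H3K4me3 peaks within the gene and the 1 kb upstream of its start. A peak was gained where both TRB2-ZF lists had one in that span and neither fwa replicate 1 nor 2 did, and lost in the opposite case. A gene was longer or shorter where its covered length differed by at least 200 bp in the same direction in both pairs of lists with the same replicate number. The fwa replicate 3 list has no TRB2-ZF partner and served as a further control. Peak lists hold no read counts, so the depth behind each value is unknown and no counting interval can be given.

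Sequences are given for 5 loci on which the lists of the lines differed. They were read from the RefSeq TAIR10.1 assembly on the plus strand, 5′ to 3′. The first is the 150 bases just before the annotated start of FWA, chr4:13038210-13038359, with capitals marking a 38-base unit that occurs 2 times in the window and 2 times in all on chromosomes 1 to 5. In this window 101 and 104 bp lay under peaks in TRB2-ZF and 66, 113 and 150 bp in fwa, and the lists differed at FWA further downstream. The other 4 are the central 100 bases of the stretch shared by the lists that held a peak, with capitals marking coding exon: GSTU16 at chr1:21936685-21936784 and DREB26 at chr1:7696904-7697003, at which both TRB2-ZF lists lacked a peak, and BUB3.2 at chr1:18479138-18479237 and BGLU11 at chr1:630661-630760, at which only TRB2-ZF had a peak among the 4 paired lists.
FWA: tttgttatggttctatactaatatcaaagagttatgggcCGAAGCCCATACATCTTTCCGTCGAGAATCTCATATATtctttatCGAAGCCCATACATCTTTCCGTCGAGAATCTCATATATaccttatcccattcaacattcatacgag
GSTU16: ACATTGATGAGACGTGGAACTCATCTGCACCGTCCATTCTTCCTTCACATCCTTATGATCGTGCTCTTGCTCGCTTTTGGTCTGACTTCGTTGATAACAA
DREB26: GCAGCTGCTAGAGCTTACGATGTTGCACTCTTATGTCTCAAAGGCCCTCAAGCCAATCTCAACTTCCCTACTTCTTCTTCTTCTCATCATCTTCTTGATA
BUB3.2: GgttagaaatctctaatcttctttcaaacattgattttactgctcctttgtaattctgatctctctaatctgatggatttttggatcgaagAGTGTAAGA
BGLU11: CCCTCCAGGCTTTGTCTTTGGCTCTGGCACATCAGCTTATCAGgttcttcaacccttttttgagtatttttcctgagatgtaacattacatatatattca

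The lists differed more by replicate number than by line. Of 10 floral organ MADS-box genes, SEP4 had a peak in all 5 lists, with 824 and 976 bp in TRB2-ZF and 834, 845 and 922 bp in fwa. A peak was present at 9 of the other 9 in TRB2-ZF replicate 1, fwa replicate 1 and fwa replicate 3, against 1 of 9 in TRB2-ZF replicate 2 and 0 of 9 in fwa replicate 2. Without SEP4 their summed covered length was 10147 and 535 bp in TRB2-ZF replicates 1 and 2, and 10416, 0 and 11544 bp in fwa replicates 1, 2 and 3. SEP3, a MADS-box gene needed for floral organ identity, had 1914, 1994 and 1977 bp in TRB2-ZF 1, fwa 1 and fwa 3, and AG, which specifies stamens and carpels, had 1590, 1684 and 1886 bp, while both had 0 in TRB2-ZF 2 and fwa 2. The class I KNOX genes STM, BP, KNAT2 and KNAT6, which keep meristem cells undifferentiated, followed the same split, with 4 of 4 covered in the first set of lists and 0 of 4 in the second. In the opposite direction, LHCB1.1, which encodes a light-harvesting antenna protein, had 764 and 962 bp in TRB2-ZF 2 and fwa 2 and 0 in the other 3 lists. Of 10 photosynthesis genes, 10 had a peak in each replicate 2 list and 8 in each of the others, with summed lengths of 12156 and 12665 bp against 7856 to 9434 bp. The tapetum genes AMS, MS1 and TDF1 had none apart from 8 bp at 1 of them in fwa 3. Apart from SEP4 and, in TRB2-ZF 2, SEP1, the floral organ markers were at 0 in the replicate 2 lists, although all 5 lists carry the label of floral tissue. The part of this split in any comparison that mixes replicate numbers was not tested.

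**Figure D1:**
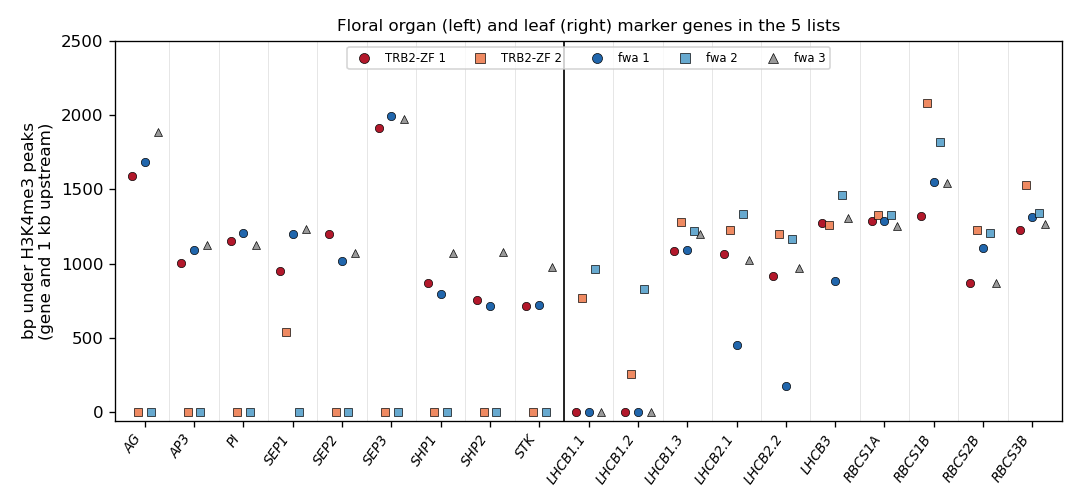
Covered length in bp (y axis) of 9 floral organ genes (SEP4 is not drawn) and 10 photosynthesis genes in each of the 5 H3K4me3 lists, with 1 point per list and gene. The floral organ genes were covered in TRB2-ZF 1, fwa 1 and fwa 3 and, apart from SEP1 in TRB2-ZF 2, at 0 in TRB2-ZF 2 and fwa 2, and the photosynthesis genes LHCB1.1 and LHCB1.2 had the opposite pattern.

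The same split ran through the whole gene set. Within TRB2-ZF, 2752 genes were covered by at least 200 bp more in replicate 1 and 2381 by at least 200 bp more in replicate 2, and within fwa the counts were 3002 and 2517. A peak was present in both replicate 1 lists and in neither replicate 2 list at 710 genes, of which 701 also had a peak in fwa 3, and in both replicate 2 lists only at 492 genes. Each TRB2-ZF list was therefore set against the fwa list with its number, and the values of named genes are given in fwa 3 too, whose markers go with the replicate 1 lists.

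The lists of both lines held about the same number of H3K4me3 peaks over about the same length. TRB2-ZF had 17147 and 16497 distinct peaks, and fwa had 17085, 16453 and 17076. The ranges overlap, and the means of 16822 ± 459.6 (SD, n = 2) and 16871.3 ± 362.3 (SD, n = 3) differed by -49.3 peaks, less than the spread within either line (exact permutation test, two-sided, p = 0.8). The peaks covered 13.86 and 13.66 Mb in TRB2-ZF and 14.13, 13.83 and 15.5 Mb in fwa. The TRB2-ZF mean differed from the fwa mean by -5.01% (exact permutation test, two-sided, p = 0.4), and 2 lists against 3 cannot give a p below 0.2. The fwa 3 list, with a median peak width of 842 bp against 759 to 772 bp in the other 4, carried most of that difference. Without it, the difference of TRB2-ZF was -1.57%, and by pair TRB2-ZF covered 1.91% less in replicate 1 and 1.22% less in replicate 2.

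Most peaks had a counterpart in the list of the other line with the same number. Of the TRB2-ZF peaks, 97.3% in replicate 1 and 96% in replicate 2 shared at least 1 bp with an fwa peak, and of the fwa peaks 97.1% and 96.1% shared at least 1 bp with a TRB2-ZF peak. The peaks without a counterpart were weak: in TRB2-ZF 1 there were 463 of them with a median fold enrichment (the height of a peak over its local background, as the peak caller gives it) of 2.29, against 8.9 for the rest. At the level of genes, 16496 genes had a peak in all 4 paired lists, 16486 had one in all 5, and 8258 had none in any of the 5. Over genes covered in at least 1 list of a pair, the difference of TRB2-ZF from fwa had a median of -14 bp in replicate 1 and -9 bp in replicate 2, and 91.5% and 85.9% of the genes were within 200 bp. Against fwa 3 the medians were -82 bp for TRB2-ZF 1 and -92 bp for TRB2-ZF 2, and 85% and 66.6% of the genes were within 200 bp. The mark also lay at the same place in every list. Among the 16496 genes covered in all 4 lists, the share under a peak was highest 400 bp downstream of the start in each list, at 86.6% to 89%.

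**Figure D2:**
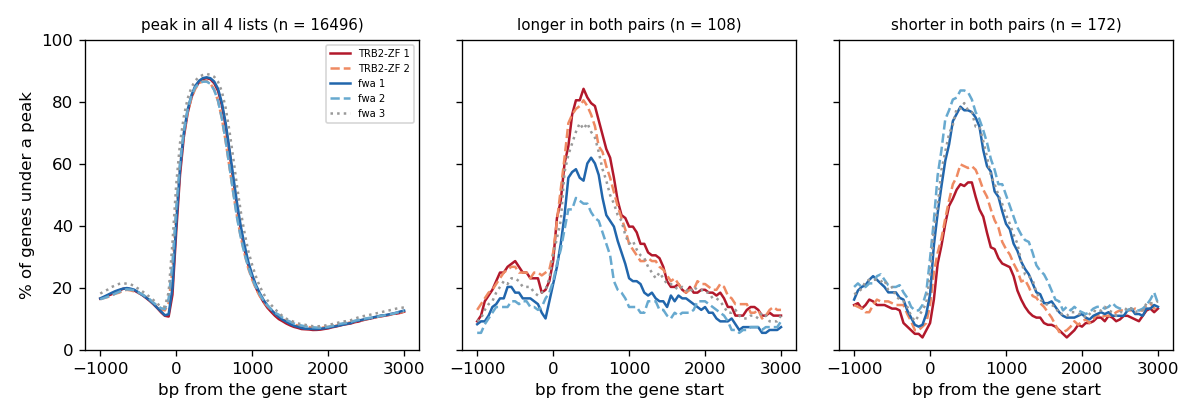
Percent of genes under an H3K4me3 peak (y axis) by distance in bp from the gene start (x axis) in each list, for the genes covered in all 4 paired lists and for the longer and shorter genes. Over all covered genes the 5 curves peak at 400 bp, between 86.6% and 89%, and the shorter genes reach 54.1% and 59.9% in TRB2-ZF against 78.5% to 83.7% in fwa, a difference that their choice fixes.

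FWA, the gene at which the zinc finger was aimed, kept its H3K4me3 peak in TRB2-ZF, but the peak was shorter and lower. FWA (AT4G25530, chromosome 4, 13038360 to 13042464, plus strand, TAIR10) had 844 and 506 bp under peaks in TRB2-ZF 1 and 2, and 1229, 802 and 1335 bp in fwa 1, 2 and 3. Each TRB2-ZF list was below the fwa list of its number, by 385 and 296 bp, but TRB2-ZF 1 lay above fwa 2, so the groups overlapped. The peak began 101 and 104 bp before the gene start in TRB2-ZF and 66 to 154 bp before it in fwa, within or next to the repeats printed above. It ended 742 and 401 bp after the start in TRB2-ZF and 1162, 688 and 1180 bp after it in fwa, so the difference lay at its downstream edge. Within 500 bp on either side of the start the mean difference between the pairs was only -36.5 bp, against -340.5 bp over the whole span.

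The height of the FWA peak did not overlap between the lines once each list was put on its own scale. The fold enrichment was 8.73 and 4.86 in TRB2-ZF and 11.12, 7.93 and 10.39 in fwa. Ranked among all peaks of its own list, the FWA peak stood at percentiles 49.6 and 25 in TRB2-ZF and at 78.8, 80.4 and 79.6 in fwa. This percentile was not among the measures planned beforehand, for FWA or for any other gene. The mean change of -42.32 points put FWA at rank 44 from the lowest of the 16496 genes with a peak in all 4 paired lists. In covered length, the limma test gave FWA a log2 difference of -0.53 with an SE of 0.33 and an adjusted p of 1 over all genes, and with the replicate number as a block an SE of 0.06 and an adjusted p of 0.866. No FLAG-TRB2 or FLAG-JMJ14 peak from lines without a zinc finger was found over FWA, and no H3K27me3 peak in the replicate 1 list of TRB2-ZF or in fwa 1 and 2. The TRB1-ZF lists had 823, 386 and 937 bp over FWA and the TRB3-ZF lists 815 and 586 bp; they are set against the same fwa lists and are given side by side only.

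Among the TRB genes, TRB2 differed most between the lines. TRB2 (AT5G67580, chromosome 5, 26955568 to 26957774, minus strand) had 1608 and 2101 bp in TRB2-ZF and 1656, 1653 and 1752 bp in fwa, 48 bp less in the replicate 1 pair and 448 bp more in the replicate 2 pair. Its fold enrichment was 5.02 and 2.46 against 12.64, 9.28 and 11.19, and its percentile 19.98 and 6.4 against 90.76, 94.3 and 88.39. This mean change of -79.34 points was the lowest among the 16496 genes. TRB2 shares this peak with its neighbour FRO1, which encodes a subunit of mitochondrial complex I, so the same values hold for FRO1, and the next gene, DG1, had a mean change of -59.88 points. The transgene carries genomic TRB2 sequence, and reads from the transgene and from the resident gene cannot be told apart. TRB1 had 574 and 608 bp against 621, 626 and 720 bp, and TRB3 758 and 674 bp against 716, 719 and 804 bp. The remaining family members AT1G17520 and AT1G72740 differed from the fwa list of their number by at most 151 bp, and no TRB gene was called longer, shorter, gained or lost.

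**Figure D3:**
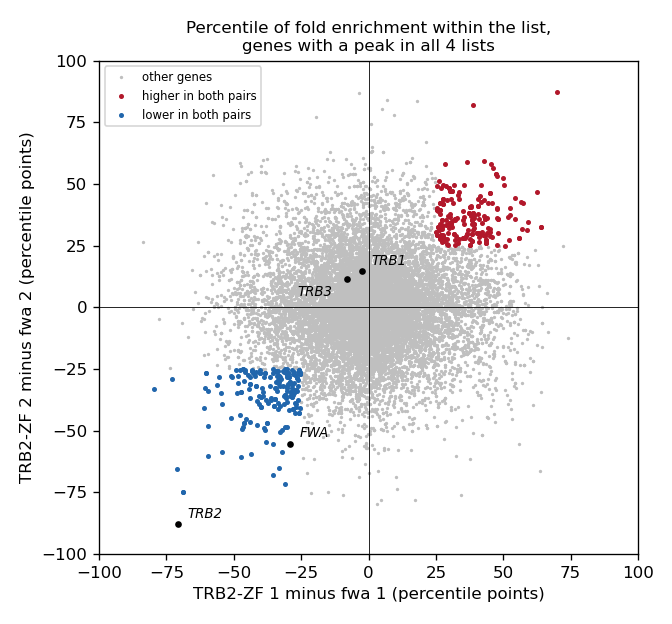
Change in the percentile of fold enrichment from fwa to TRB2-ZF in percentile points, in the replicate 1 pair (x axis) and the replicate 2 pair (y axis), with 1 point for each of the 16496 genes covered in all 4 lists and FWA, TRB1, TRB2 and TRB3 named. TRB2 lies at -70.78 and -87.9 and FWA at -29.26 and -55.39, while TRB1 lies at -2.5 and 14.56 and TRB3 at -7.86 and 11.42.

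The test across genes called no gene. On the log2 scale of covered length plus 100 bp, limma with Benjamini-Hochberg adjustment found 0 (0%) of 19003 genes higher and 0 (0%) lower in TRB2-ZF at an adjusted p under 0.05, and the smallest adjusted p was 1. At an unadjusted p under 0.05 it had 225 genes (1.18% of those tested), of which 75 were higher and 150 lower. With the replicate number as a block it also called 0 (0%) in each direction, and the smallest adjusted p was 0.866. At an unadjusted p under 0.05 the block fit had 688 genes (3.62% of those tested), of which 221 were higher and 467 lower. Both shares at this p are below the 0.05 that the threshold gives where no gene differs. With 2 lists per line the test could miss large differences. In the block fit SCPL13, described below, had a log2 difference of -3.516 with an SE of 0.186. Its limma p was 0.000295 and its adjusted p 0.866. The 0 calls therefore do not show that no gene differed. All fold changes on this scale understate those of genes with short covered lengths. The gained, lost, longer and shorter genes below are therefore descriptions by a rule, and no single gene among them passed a test across all genes.

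A peak was lost in TRB2-ZF at 42 genes, 0.153% of the protein-coding genes, and gained at 27 genes, 0.0984%. Some neighbouring genes share a peak, so the 42 lost genes made 38 separate stretches and the 27 gained genes 26. In the replicate 1 pair alone 340 genes (1.24%) had lost a peak and 253 (0.922%) had gained one, and in the replicate 2 pair alone 435 (1.59%) and 379 (1.38%). Without TRB2-ZF 1, TRB2-ZF 2, fwa 1 or fwa 2 in turn, which asks for less agreement, 90 to 271 genes were gained and 182 to 275 lost. The fwa 3 list had a peak at 37 of the 42 lost genes, as the other fwa lists did, and no peak at 16 of the 27 gained genes.

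Among the lost genes with a symbol, SCPL13 and GSTU16 had the largest mean difference. Over all lost genes, AT3G43574 (966, 916 and 1021 bp in fwa 1, 2 and 3) and AT5G03355 (642, 1015 and 630 bp), which have no symbol, lay between them. SCPL13 (AT2G22980, chromosome 2, 9778759 to 9783310), which encodes a serine carboxypeptidase-like protein, had 943, 1154 and 1050 bp under peaks in fwa 1, 2 and 3 and 0 in both TRB2-ZF lists. GSTU16 (AT1G59700, chromosome 1, 21936278 to 21938001), a glutathione S-transferase that conjugates toxic compounds to glutathione, had 777, 650 and 908 bp in fwa and 0 in both TRB2-ZF lists. At both genes all 3 fwa lists were high and both TRB2-ZF lists empty. For SCPL13 the limma log2 difference was -3.52 with an SE of 0.51, and its adjusted p was 1.

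Of the other named lost genes, DREB26, an AP2/ERF-type factor, had 330 and 904 bp in fwa 1 and 2 but 0 in fwa 3, so that 1 control list matched TRB2-ZF there. BEE3, a bHLH factor induced early by brassinosteroids, had 256, 634 and 0 bp in fwa, and AGL101, a MADS-box gene, 147, 272 and 0 bp. In contrast NAC100, a NAC-domain factor, had 807, 186 and 826 bp, and BBX31, a B-box protein, 249, 217 and 242 bp, so that all 3 fwa lists held the peak. Among the other named lost genes, CID9, an RNA-binding protein, had 451, 530 and 607 bp in fwa, MLO3, a membrane protein of the MLO family, 220, 333 and 614 bp, and NSH3, a nucleoside hydrolase, 229, 171 and 606 bp. The remaining lost genes with a symbol, RLP55, CYP704B1, TBL15, cwINV6 and TET15, had at most 343 bp in any fwa list, and 4 of these, all but RLP55, had at most 87 bp, an overlap with the edge of a peak.

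The named gained genes had at most 541 bp under peaks in TRB2-ZF. BUB3.2 (AT1G49910, chromosome 1, 18478951 to 18481539), a homologue of a spindle checkpoint protein, had 407 and 541 bp in TRB2-ZF, 0 in fwa 1 and 2 and 283 bp in fwa 3, and its peak covered the intron and exon edges printed above. BGLU11, a beta-glucosidase, had 224 and 488 bp in TRB2-ZF and 0 in all 3 fwa lists. ARO1, an armadillo-repeat protein, had 250 and 57 bp, and EXPB4, a beta-expansin of the cell wall, 8 and 52 bp, also with 0 in the 3 fwa lists. The EXPB4 value is the edge of a peak, with 0 bp in the gene body. CYP722A1, ABCC10 and AHG11 had 155 to 339 bp in TRB2-ZF and 0 in fwa 1 and 2, but 230 to 528 bp in fwa 3.

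The longest gained stretches lay in genes without a symbol, and some of them next to ribosomal RNA genes. AT3G41762 (chromosome 3, 14195447 to 14196865) had 1903 and 2419 bp in TRB2-ZF and 0 in all 3 fwa lists, and lies 812 bp from an annotated rRNA gene. AT2G01021 had 871 and 1102 bp and AT2G01008 250 and 1675 bp, with 0 in the 3 fwa lists, and they lie 626 and 533 bp from rRNA genes at the left end of chromosome 2. Of the 4 protein-coding genes within 5 kb of the 4 rRNA genes annotated on the chromosomes, 3 were gained and longer. The H3K4me3 peaks at these 3 were among the weakest in TRB2-ZF, with fold enrichments of 1.3 to 1.88, at percentiles 0.06 to 1.32. AT3G41762 also had 2419 bp under H3K27me3 peaks in each of fwa 1, fwa 2 and TRB2-ZF 1, so its coverage was not particular to H3K4me3. Ribosomal RNA genes are repeated many times in the genome and only a few copies are in the assembly, so the covered lengths of these 3 genes are uncertain. Leaving them out, 24 genes were gained and 105 longer. Away from the rRNA genes, AT2G11626 had 1012 and 1095 bp in TRB2-ZF, 0 in fwa 1 and 2 and 220 bp in fwa 3, and AT2G06667 had 593 and 950 bp against 0 in the 3 fwa lists. Chromosome 2 held 13 of the 27 gained genes, 0.301% of its 4317 protein-coding genes.

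**Figure D4:**
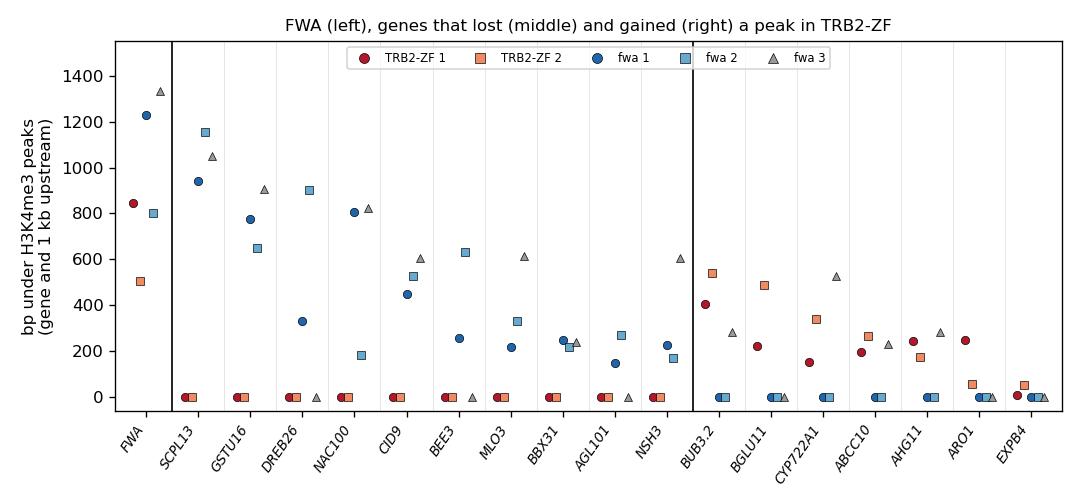
Covered length in bp (y axis) of FWA and of the named lost and gained genes in each of the 5 lists, with 1 point per list. SCPL13 and GSTU16 have 650 to 1154 bp in the 3 fwa lists and 0 in TRB2-ZF, and the named gained genes have at most 541 bp in TRB2-ZF.

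Longer coverage in TRB2-ZF was found in both pairs at 108 genes (0.394%), and shorter coverage at 172 genes (0.627%). In the replicate 1 pair alone 606 genes (2.21%) were longer and 941 (3.43%) shorter, and in the replicate 2 pair alone 1093 (3.98%) and 1442 (5.25%). The threshold of 200 bp does not separate a distinct set: 46 longer and 75 shorter genes had their smaller difference less than 50 bp above it, and a further 87 and 192 genes fell outside by at most 50 bp. With all lists scaled to the same covered length, 130 genes were longer and 147 shorter. Neighbouring genes can share a peak, and the 108 longer genes made 96 separate stretches and the 172 shorter genes 156.

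Against fwa 3 the picture was less even. Both TRB2-ZF lists lay above all 3 fwa lists at 247 genes (0.9%) and below all 3 at 2459 genes (8.96%). These counts ask for no minimum difference, unlike the longer and shorter calls, and the fwa 3 peaks were wider than those of any other list. Of the 108 longer genes, 45 lay above all 3 fwa lists, and of the 172 shorter genes 103 lay below all 3. With fwa 3 as the control of both TRB2-ZF lists, 54 genes were longer and 1482 shorter.

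**Figure D5:**
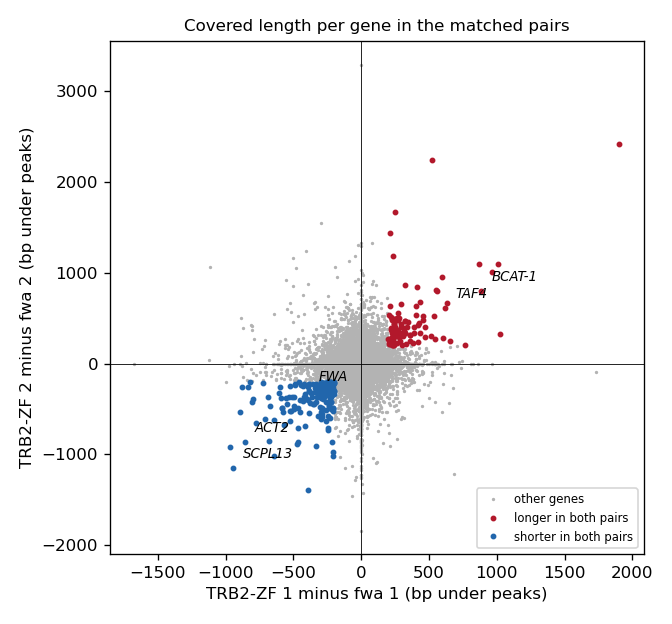
Difference in covered length, TRB2-ZF minus fwa, in bp, in the replicate 1 pair (x axis) and in the replicate 2 pair (y axis), with 1 point per gene and the longer and shorter genes in colour. The 108 longer and 172 shorter genes lie beyond 200 bp on both axes, and most other genes lie near 0.

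Among the shorter genes, ACT2 (AT3G18780), a vegetative actin, had 0 and 387 bp in TRB2-ZF and 855, 1254 and 1346 bp in fwa, and the groups did not overlap. NF-YC2, a subunit of the CCAAT-binding factor, had 509 and 0 bp against 1185, 856 and 1227 bp. ATPUP13, a purine permease, had 862 and 859 bp against 1753, 1394 and 1866 bp, and MCC1, a GNAT-type acetyltransferase with a role in meiotic crossover distribution, had 105 and 116 bp against 751, 731 and 841 bp. In these genes every TRB2-ZF list was below every fwa list. FDM1, which takes part in RNA-directed DNA methylation, had 845 and 476 bp against 1412, 1151 and 1369 bp, again without overlap. STP1, a monosaccharide transporter, had 1308 and 2254 bp against 2115, 2676 and 1786 bp, and PIL1, a phytochrome-interacting-factor-like bHLH protein, 790 and 638 bp against 997, 1651 and 1214 bp. At STP1 the lists of the lines overlapped, while at PIL1 they did not.

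Longer genes included a pair of neighbours of endoplasmic reticulum bodies. BGLU18 (AT1G52400), a beta-glucosidase of these bodies, had 2804 and 2247 bp in TRB2-ZF and 2280, 0 and 2586 bp in fwa, and TSA1 (AT1G52410), a protein of the same bodies, 1151 and 870 bp against 831, 0 and 1265 bp. For both, fwa 2 had no peak, which set the difference in the replicate 2 pair, and fwa 3 lay between or above the TRB2-ZF lists. TAF4, a subunit of the general transcription factor TFIID, had 2103 and 2091 bp against 1485, 1482 and 1907 bp. It was among the genes with the most even difference, of 618 and 609 bp, and the lists of the lines did not overlap, although within 500 bp of its start the difference was -10 bp. BCAT-1, a branched-chain amino acid aminotransferase, had 1210 and 976 bp against 324, 174 and 1236 bp, so that fwa 3 was above both TRB2-ZF lists. RD28, an aquaporin, followed the same order, with 587 and 487 bp against 134, 0 and 714 bp. TBL26, a member of a family linked to cell wall acetylation, had 1680 and 1133 bp against 1227, 602 and 1389 bp. MYB47, a MYB factor, had 416 and 1773 bp against 182, 585 and 352 bp, and CIL, a CCT-domain protein, 992 and 1095 bp against 227, 888 and 382 bp, the latter without overlap. FSD1, a chloroplast iron superoxide dismutase, had 657 and 1447 bp against 0, 1196 and 0 bp, and its values followed the replicate number more than the line. Without fwa 1 its mean difference turned to -144 bp.

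The bases that differed in the shorter genes lay mostly downstream of the start. Of the bases by which the shorter genes fell short in the replicate 1 and 2 pairs, 28.3% and 31.2% lay in the first 500 bp of the gene, 29.1% and 22.3% in the next 500 bp, 21.7% and 23.5% between 1 kb and 2 kb, and 15.6% and 17% in the 1 kb upstream. The longer genes gained 24.1% and 26.1% of their bases in the first 500 bp and 19.2% and 19.9% upstream.

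The height of peaks, as the percentile of fold enrichment within a list, was lower by at least 25 points in both pairs at 189 genes (1.15%) and higher at 196 (1.19%), of the 16496 genes covered in all 4 lists. Either pair alone gave 1227 or 1594 lower and 1427 or 1566 higher genes. Of these, 3 of the 189 lower genes were also shorter and 2 of the 196 higher genes were also longer. The following genes were chosen after their values were seen. GIP2, a small protein of the gamma-tubulin complex, and SARD1, a calmodulin-binding-protein-like regulator of salicylic acid synthesis, share a peak that stood at percentiles 29.42 and 17.57 in TRB2-ZF and 98.12, 92.58 and 79.49 in fwa. HAT9, a homeodomain-leucine zipper factor, stood at 22.32 and 14.37 against 93.48, 79.84 and 36.19, and was also shorter, with 974 and 365 bp against 1271, 941 and 1281 bp. At the other end AT4G07965, an uncharacterized gene, stood at 96.47 and 99.52 against 26.68, 12.16 and 22.62. FER3, a ferritin that stores iron in plastids, stood at 90.12 and 87.41 against 27.77, 40.54 and 85.82, so that fwa 3 was at the level of TRB2-ZF.

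The genes that set H3K4me3 and H3K27me3 kept their coverage by these rules. Of 11 H3K4 demethylase and partner genes, 10 had a peak in all 5 lists and JMJ15 had none. All 10 H3K4 methyltransferase and COMPASS genes had a peak in all 5 lists. Of 8 PRC2 genes, 6 had a peak in all 5 lists and MEA and FIS2, which act in the seed, had none. None of these 29 genes was gained, lost, longer or shorter, and none differed by 200 bp in either pair. The median difference was -5 and -31 bp over the demethylase group, -13.5 and 2 bp over the methyltransferases and 1.5 and -17 bp over PRC2. Over all genes with a peak in all 4 paired lists it was -15 and -7 bp. The group medians include JMJ15, MEA and FIS2, which had no peak, so the sets are not alike.

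Of 25 flowering time and meristem identity genes, 12 had a peak in all 5 lists, 6 had none and 2 were longer, beside 0.394% of all genes. FT and TSF, which encode the mobile flowering signal, LFY and CAL, which specify floral meristems, and TFL1 and BFT, which repress flowering, had no peak in any list. MAF5, of the FLC clade of flowering repressors, had 627 and 403 bp in TRB2-ZF and 155, 0 and 218 bp in fwa, and AGL24, a MADS-box promoter of flowering, 486 and 639 bp against 257, 433 and 412 bp. At both genes the TRB2-ZF lists lay above all 3 fwa lists. The flowering integrator SOC1 had 751 and 1459 bp against 978, 1531 and 1089 bp, below the fwa list of its number by 227 and 72 bp. FLC itself had 0 in both TRB2-ZF lists and 164, 0 and 290 bp in fwa. The inflorescence-phase genes AP1, SPL4, SPL5 and SPL15 had peaks in TRB2-ZF 1, fwa 1 and fwa 3 and none in TRB2-ZF 2 and fwa 2, and so followed the replicate number.

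Of 9 leaf senescence genes 1 was shorter, beside 0.627% of all genes, and of 9 salicylic acid defence genes none was called. SEN1, a dark-inducible senescence gene, had 737 and 1204 bp in TRB2-ZF and 1534, 1593 and 983 bp in fwa, and fwa 3 lay between the TRB2-ZF lists. PR2 and PR5, pathogenesis-related genes, had 929 and 683 bp in fwa 2 and 0 in the other 4 lists. No floral organ, KNOX, photosynthesis or tapetum gene was called in any direction.

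Genes bound by TRB2 or JMJ14 were set beside all genes. Over the 14001 genes with a FLAG-TRB2 peak in ChIP-seq of flower buds from lines without a zinc finger, 0.507% were longer and 0.757% shorter, against 0.394% and 0.627% of all genes. All 4 paired lists had an H3K4me3 peak at 10187 of these genes and at 6309 of the 13443 genes without a FLAG-TRB2 peak, and a gene needs an H3K4me3 peak to be called. Lost genes were 0.107% and gained genes 0.0857% of the TRB2-bound genes. Over the 3488 genes with both FLAG-TRB2 and FLAG-JMJ14 peaks the shares were 0.745% longer, 0.975% shorter, 0.201% gained and 0.143% lost, against 0.0984% gained and 0.153% lost of all genes. Over the 4943 genes with a FLAG-JMJ14 peak they were 0.546% longer, 0.789% shorter, 0.182% gained and 0.182% lost. An H3K4me3 peak in all 4 paired lists was present at 1674 of the 3488 and 2069 of the 4943 genes, against 16496 of all 27444. Over the 1674 genes with both peaks the median differences were -11 and -3 bp. Over the 2069 with a FLAG-JMJ14 peak they were -12 and -3 bp, beside -15 and -7 bp over the 16496. The telomere-repeat-like motif AAACCCTA, searched on both strands of the 1 kb upstream, occurred in 12.4% of all protein-coding genes, in 2 of 42 lost, 3 of 27 gained, 13 of 108 longer and 19 of 172 shorter genes. A match is a description of these letters only.

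The H3K27me3 lists were set beside these genes for replicate 1 only, since the replicate 2 lists of TRB1-ZF and TRB2-ZF hold the same 11610 peaks. With 1 list per line these values have no replicate check. H3K27me3 had a peak in both fwa lists at 26.9% of all protein-coding genes. The share was 40.5% of the lost, 26.2% of the shorter, 37% of the gained and 32.4% of the longer genes. H3K27me3 covered at least 200 bp more in TRB2-ZF 1 than in fwa 1 at 3.75% of all protein-coding genes, and at 8 of the 42 lost (19%) and 27 of the 172 shorter genes (15.7%). It covered at least 200 bp less at 11.3% of all genes, and at 31 of the 108 longer genes (28.7%). Of the 27 gained genes, 2 (7.41%) had at least 200 bp more and 4 (14.8%) at least 200 bp less. At least 200 bp less was also found at 4 lost (9.52%) and 12 shorter genes (6.98%), and at least 200 bp more at 3 longer genes (2.78%). At SCPL13 it covered 1489 and 759 bp in fwa 1 and 2 and 4154 bp in TRB2-ZF 1, and at GSTU16 1143 and 1515 bp against 2609 bp. At both genes the length of H3K27me3 was larger where H3K4me3 was without a peak.

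The TRB1-ZF and TRB3-ZF lines, which carry the same zinc finger on related proteins, are set against the same fwa lists, so their values are given side by side with no test. Of the 42 genes lost in TRB2-ZF, 18, 27 and 26 had a peak in TRB1-ZF 1, 2 and 3, and 23 and 17 in TRB3-ZF 1 and 2. A peak was present in all 5 of these lists at 5 of the 42 genes and in none at 7. SCPL13 was without a peak in all 5, as in TRB2-ZF. AT3G43572, an uncharacterized gene on chromosome 3 (15479021 to 15479233), had 393, 402 and 402 bp in fwa, 0 in both TRB2-ZF lists and 396 to 484 bp in the 5 TRB1-ZF and TRB3-ZF lists. AT3G43574, named above among the largest losses, shares this peak and had 955 to 1029 bp in the same 5 lists. Of the 27 genes gained in TRB2-ZF, 13, 19 and 21 had a peak in the TRB1-ZF lists and 12 and 18 in the TRB3-ZF lists.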

How the data were processed

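The authors trimmed reads with Trim Galore, aligned them to TAIR10 with Bowtie2 2.1.0, kept unique alignments without duplicates using SAMtools 1.9 and called peaks with MACS2 2.1.1, with versions as in the submitters' processing notes (the methods of the study name a later Bowtie2 version); the control of each call is not named. Each deposited list gives, per peak, an interval, a fold enrichment as a linear ratio and a −log10 q-value, with no read counts, so depth is unknown and the number of lists limits precision. The deposited fold values were used as given and as ranks within a list, and the deposited −log10 q-values only for a stricter threshold of 10.

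Here, samples were grouped by the labels, peaks on chromosomes 1 to 5 were kept, repeated intervals of several summits were merged, and bases under peaks were summed per RefSeq TAIR10.1 gene (27444 protein-coding of 37899) with the 1 kb upstream (Python 3.11.15, numpy 2.4.6, pandas 2.3.3, matplotlib 3.10.9). Chloroplast peaks were left out. Chromosome coordinates are the same in TAIR10 and TAIR10.1. Log2 (covered length + 100 bp) of the 19003 genes with a peak in at least 1 of 4 lists was tested with limma 3.58.1 (R 4.3.3) on TRB2-ZF and fwa replicates 1 and 2, and list totals with an exact permutation test (scipy 1.17.1). The pipeline was tested on simulated data. Same-numbered lists deviated together over the H3K4me3 lists of TRB1-ZF, TRB2-ZF, TRB3-ZF and fwa (13 pairs, r 0.627 to 0.864, with r 0.785 for TRB2-ZF against fwa 1 and 2). Lists with other numbers gave r -0.864 to 0.707 (24 pairs), and TRB2-ZF 1 had r 0.707 with fwa 3 beside 0.691 with fwa 1. In a line with 2 lists the deviations mirror each other, so these values are not independent. The numbers were taken as pairs from these data. Replicates are samples by label only, and p-values measure the spread between them, which may be technical. The peak names inside the fwa 2 list carry the name of replicate 1; the intervals differ from those of fwa 1.

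Members and gene lists were chosen with earlier results of these data known. Genes named were the 10 gained, lost, longer and shorter genes with a symbol and the largest mean difference (7 gained), called members of the gene lists, FWA and the TRB genes; others are said to have been chosen after their values were seen or are the largest without a symbol. Alternatives were a stricter q, equal-length lists, other spans, overlaps, thresholds, pseudocounts and filters, scaling, fwa 3 as control, each replicate left out and the replicate block. Lists of a Myc-tagged line were not used, because their file names and labels disagree.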

Additional observations from a re-analysis of the deposited data

Results flagged for a closer look

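Peaks on the chloroplast genome were outside the comparisons. There were 145 of them in TRB2-ZF 1 and 116 in TRB2-ZF 2, against 92, 107 and 28 in fwa 1, 2 and 3, so that both TRB2-ZF lists were above all 3 control lists. The chloroplast has no histones, and these peaks entered no covered length.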

How the results depend on the processing

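The counts of called genes depend on the rule, and the cause was not tested where it is not fewer or more lists or genes. Gained genes (27) were 61 over all annotated genes, 16 against fwa 1 to 3 and 90 to 271 with a list left out, and lost genes (42) were 70 over all annotated genes and 182 to 275 with a list left out. Longer genes (108) and shorter genes (172) were 18 and 35 within 500 bp of the start, 401 and 728 with a minimum of 100 bp, 12 and 14 with 500 bp, 54 and 1482 with fwa 3 as the control (an alternative chosen after seeing the data, as were equal scaling and those on the percentile), 606 to 1093 and 941 to 1442 with 1 pair left out, and longer genes were 168 over all annotated genes. Lower and higher percentiles of fold (189 and 196) were 576 and 727 with fwa 3 as the control and 1227 to 1594 and 1427 to 1566 with 1 pair left out. The difference in distinct peaks (-49.3) turned to 53 against fwa 1 and 2 and ranged from -374.3 to 275.7 with a list left out, and with lists of equal length it is 0 by construction. The covered length stayed lower in TRB2-ZF in 8 of 8 alternatives. In limma 0 genes were called in all 16 alternatives, with 128 to 688 at an unadjusted p under 0.05, and scaling to the total covered length moved the median log2 difference from -0.016 to 0.005 and gave 103 higher and 114 lower genes at that p. The replicate block called 0 genes as well and changed no call. For 42 named genes under 10 alternatives each, 352 of 420 values stayed within the replicate spread, 66 moved beyond it and 2 reversed. Reversals were counted only for genes called by a rule, so changes of sign at the uncalled TRB genes are not among them. The 2 were TAF4, at -10 bp within 500 bp of the start, and FSD1. The FSD1 difference ranged from -144 bp without fwa 1 to 1052 bp without fwa 2. Gained and lost calls need only 1 bp under a peak, whereas longer and shorter genes need 200 bp.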
